A study of Saccharomyces cerevisiae with 142 samples.

Results

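Budding yeast cells carrying the heat-sensitive allele cdc14-3 or cdc15-2, both known to stop cells late in mitosis when heated, were compared with wild-type cells at the same temperature and over the same clock times. The arrays were chosen by their labels as all those taken from 120 to 180 min. This gave 17 of the 142 arrays of the series, namely 6 of cdc14-3, 6 of cdc15-2 and 5 of wild type at 37 °C, out of whole courses of 21, 16 and 15 arrays. Each strain was followed in a single time course and so contributed 1 mean per gene, and the arrays within a course are different times and not replicates.

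The synchrony method differed between the sides. The mutants (strains BF264-15D MATa bar1 cdc14-3 and BF264-15D MATa bar1 cdc15-2) grew in YEP with 2% dextrose, were arrested in G1 with alpha factor at 25 °C and were released at 37 °C. Alpha factor is the peptide by which yeast of the opposite mating type arrests cells of mating type a, and bar1 cells lack the protease that degrades it. The wild type (strain BF264-15DU, mating type a, bar1) grew at 25 °C in YEPD, small daughter cells were separated by size with centrifugal elutriation, and these were placed in prewarmed YEPD at 37 °C, so no pheromone was used. The mutant samples were taken on filters, frozen and extracted with acid phenol. The wild-type RNA was extracted with hot acid phenol, passed over a cleanup column, and measured on arrays that the labels mark as re-analysed from an earlier study. Mutation, synchrony method, RNA work and array series therefore go together in this comparison and cannot be told apart. All 3 strains are bar1, so the loss of the protease is shared by both sides.

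Mitotic exit is the passage from late anaphase, with chromosomes apart and mitotic cyclins still present, to cell division and G1. In budding yeast a signalling cascade called the mitotic exit network, in which the GTPase Tem1 activates the kinase Cdc15 and then the kinase Dbf2 with its partner Mob1, frees the phosphatase Cdc14 from the nucleolus. Cdc14 removes the phosphates placed by the cyclin-dependent kinase. Among its substrates is the transcription factor Swi5, which then enters the nucleus and turns on genes of the passage from mitosis to G1. Genes for wall digestion and cell separation are transcribed at the same passage, many of them in daughter cells.

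The deposited values were probe-set intensities for 5449 named genes, and all levels below are log2 intensities. A difference is the mean of both mutants minus wild type at 37 °C, given with its standard error (SE) from limma. A gene was called when its adjusted p was under 0.05 and each mutant lay at least 1 log2 unit from wild type in the same direction. On this rule 40 genes (0.734%) were called higher and 61 (1.12%) lower in the mutants, and 520 (9.54%) had an adjusted p under 0.05 with no demand on size. None of the 3 courses compared was repeated, so the spread behind these p-values came from the 3 other groups of the series. These were wild type at 30 °C, a cyclin mutant and cdc20, with 2 courses each. In the first 2 of these groups the 2 courses were sampled at different minutes. The spread thus does not measure variation between repeats of the courses compared. It also rests on a correction of wild type at 30 °C, replicate 2, whose values were moved by 1 probe set. With that course as deposited limma called 0 genes, and 31 had an unadjusted p under 0.05, against 1616 (29.7%) after the move. With no test at all, 45 genes (0.826%) lay at least 1 log2 unit above wild type in both mutants and 81 (1.49%) at least as far below.

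Arrays within a course resembled each other closely, with pairwise Pearson correlations across genes of 0.996 to 0.9989 in cdc14-3, 0.9918 to 0.9989 in cdc15-2 and 0.991 to 0.9976 in wild type. The 3' probe set of the control gene TDH1 read higher than its 5' probe set, a gap that RNA breakage and short labelling are known to widen, by 1.23 ± 0.11 (SD over 6 arrays) in cdc14-3, 2.51 ± 0.30 over 6 arrays in cdc15-2 and 1.47 ± 0.05 over 5 arrays in wild type. This excess thus lay on opposite sides of wild type in the mutants. The part of RNA quality in the results was not tested. All 40 higher and all 61 lower genes had their 12 mutant arrays outside the range of the 5 wild-type arrays, as 944 genes (17.3%) did above and 1123 (20.6%) below that range. Against all 15 wild-type arrays, from 15 to 225 min, 32 of the 40 and 47 of the 61 still did not overlap, with 348 genes (6.39%) and 581 (10.7%) in the background.

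**Figure D1:**
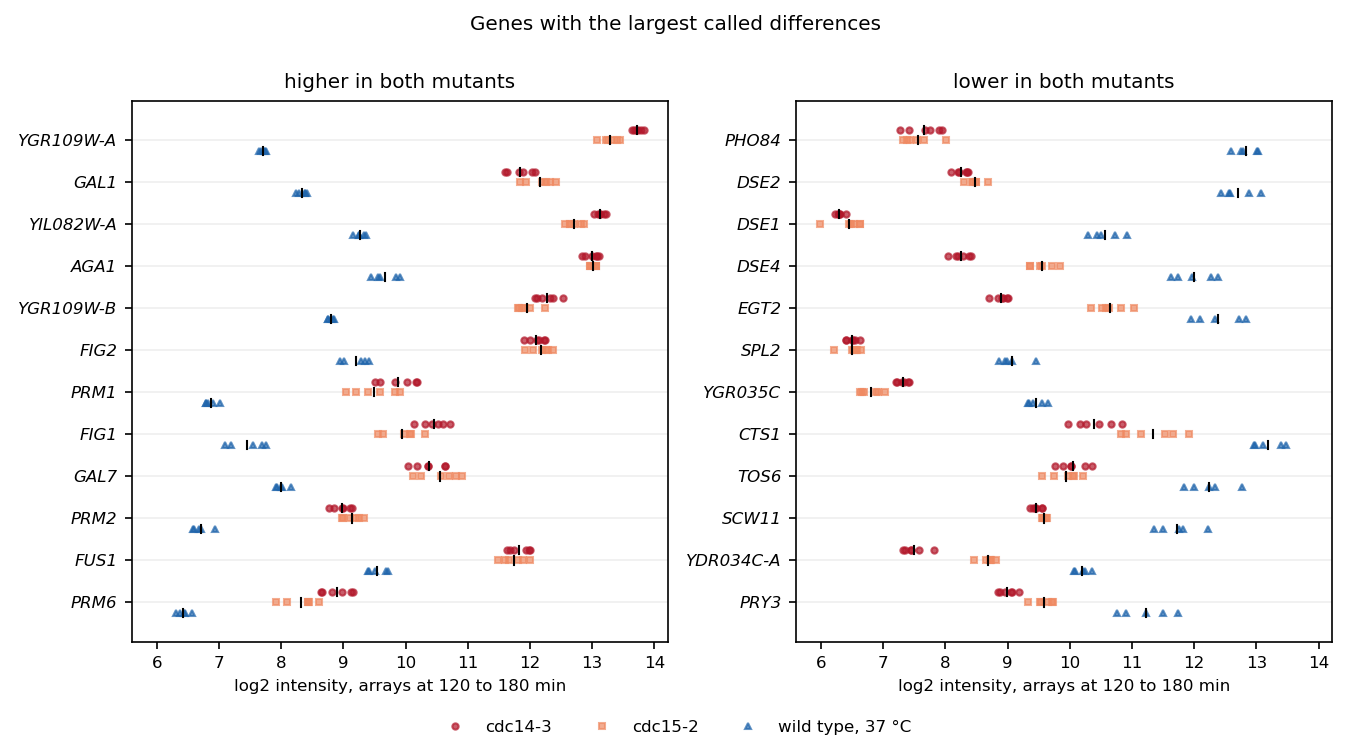
Log2 intensity on the horizontal axis of every array from 120 to 180 min for the 12 genes with the largest called difference in each direction, with cdc14-3 as circles, cdc15-2 as squares, wild type at 37 °C as triangles and a short black line at each course mean. For all 24 genes the mutant points lie clear of the wild-type points, from YGR109W-A at 5.80 above to PHO84 at 5.22 below.

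The mutated genes themselves were not called. CDC14 lay between 10.98 and 11.10 in cdc14-3 (median 11.02), between 10.59 and 10.66 in cdc15-2 (median 10.63), and at 10.41, 10.34, 10.38, 10.44 and 10.51 in wild type, in the order 120, 135, 150, 165 and 180 min that is kept below. Its mean difference was 0.41 ± 0.16 (adjusted p = 0.142). CDC15 had 9.32 to 9.41 in cdc14-3 and 9.36 to 9.47 in cdc15-2, against 9.33, 9.22, 9.15, 9.10 and 9.09 in wild type (difference 0.21 ± 0.19, adjusted p = 0.497). A heat-sensitive allele still makes its mRNA, so these levels do not check the strain labels.

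Of the 15 measured genes of the mitotic exit network, 0 were called higher and 1 lower. The called gene was AMN1, a daughter-cell antagonist of Tem1. AMN1 lay between 10.45 and 10.55 in cdc14-3, between 10.15 and 10.44 in cdc15-2, and at 12.28, 12.51, 12.01, 11.73 and 11.70 in wild type (difference -1.67 ± 0.18, adjusted p = 0.00378). The median difference of the list was 0.21, against -0.02 over all genes. Among its uncalled members, DBF2 stood at 0.92 in cdc14-3 and 0.75 in cdc15-2 relative to wild type, and MOB1 at 1.02 and 0.21. BFA1, which with Bub2 holds Tem1 inactive, stood at -1.63 and -1.55 but did not pass (adjusted p = 0.07).

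Mitotic regulators were expressed on both sides in this window. CLB2, the main mitotic cyclin, lay between 9.95 and 10.07 in cdc14-3 (median 10.01), between 9.43 and 9.61 in cdc15-2 (median 9.49), and at 9.62, 9.26, 9.20, 9.55 and 9.70 in wild type. The cdc14-3 arrays were above all wild-type arrays and the cdc15-2 arrays fell within their range. The difference of 0.29 ± 0.15 did not pass (adjusted p = 0.257). SWI5 had 10.74 to 11.0015 in cdc14-3 and 10.45 to 10.67 in cdc15-2, against 10.48, 10.14, 10.11, 10.45 and 10.83 in wild type, so that both mutants overlapped wild type (difference 0.31 ± 0.18, adjusted p = 0.289). The lowest SWI5 level of the wild-type course, 8.60 at 30 min, was far under both sides of the window.

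Of 29 measured genes of the CLB2 cluster, the set transcribed from G2 to mitosis, 1 was called higher and 0 lower. The median difference was 0.33, made of 0.58 in cdc14-3 and 0.14 in cdc15-2, and 24 of the 29 members lay above 0. CDC20, the activator of the anaphase-promoting complex, was the called member. It lay between 10.65 and 10.74 in cdc14-3 (median 10.69), between 10.06 and 10.22 in cdc15-2 (median 10.11), and at 9.37, 9.02, 8.77, 8.95 and 9.29 in wild type. CDC20 thus rose by 1.33 ± 0.14 over wild type (adjusted p = 0.0034), and its mutant levels exceeded the highest of the wild-type course at 37 °C, 9.58 at 195 min. The wild-type courses at 30 °C averaged 10.32 and 10.24 over the same minutes, above the cdc15-2 mean of 10.13. FRK1, a kinase, and CYC3, which attaches haem to cytochrome c, came next with 1.06 and 0.98, and each lay under 1 in cdc15-2 and so was not called. CLB1, a mitotic cyclin, and CDC5, the polo kinase, had differences of 0.53 ± 0.17 (adjusted p = 0.0963) and 0.33 ± 0.15 (adjusted p = 0.195).

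**Figure D2:**
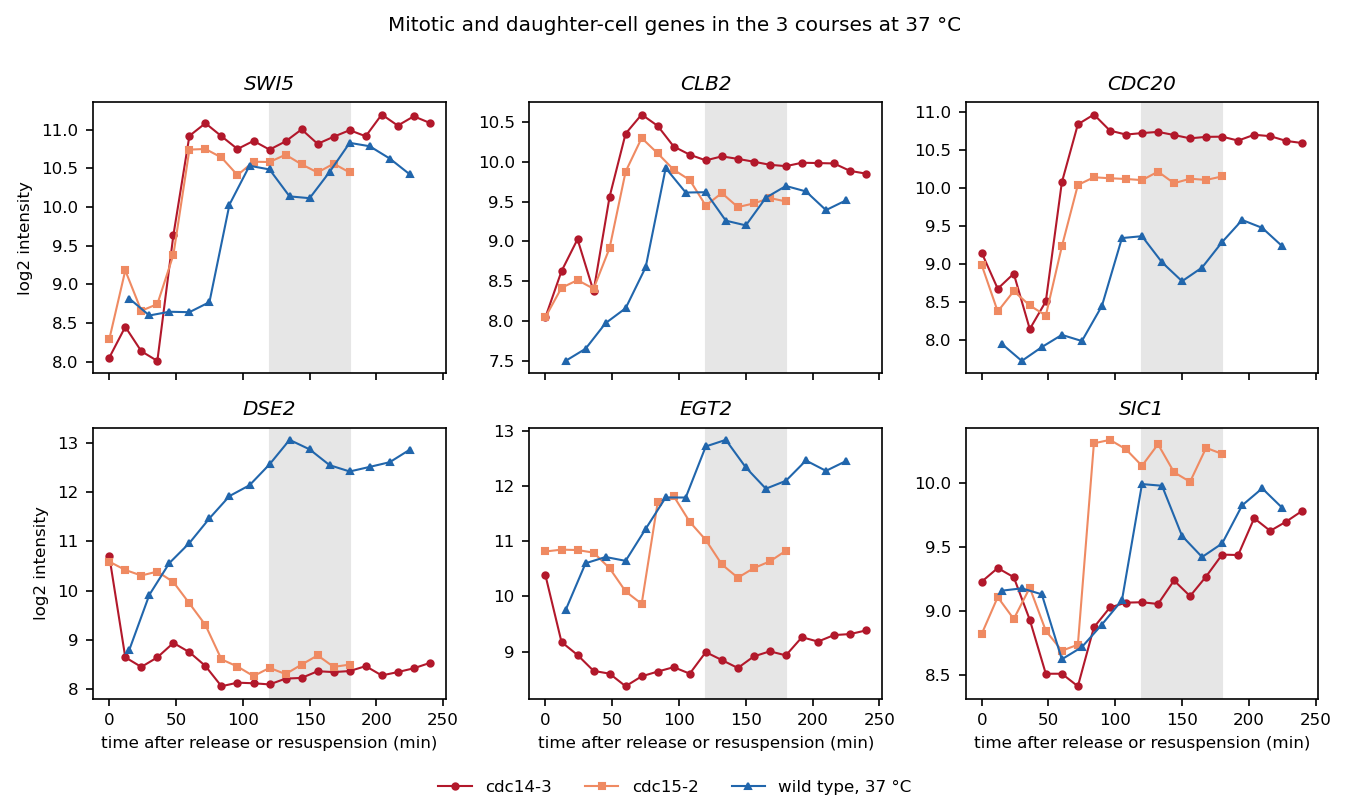
Log2 intensity over the minutes after release (cdc14-3, circles, and cdc15-2, squares) or resuspension (wild type at 37 °C, triangles), with 120 to 180 min shaded. SWI5 and CLB2 reach similar levels in the 3 courses, and DSE2 climbs in wild type and declines in both mutants. CDC20 lies near 10.69 in cdc14-3 and 10.11 in cdc15-2 within the shaded window, after 10.07 and 9.23 at 60 min. In that window EGT2 is lowest in cdc14-3, and SIC1 is higher in cdc15-2 than in cdc14-3.

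Among the lists, the one with the most lower genes was that of daughter-cell and M/G1 genes, transcribed as cells leave mitosis and separate. Of 27 measured genes of this list 10 were called lower and 2 higher, against 1.12% and 0.734% of all genes. The median difference was -1.03, against -0.02 over all genes. DSE2 (YHR143W), a secreted wall protein of daughter cells, lay between 8.08 and 8.36 in cdc14-3 (median 8.28), between 8.30 and 8.68 in cdc15-2 (median 8.47), and at 12.57, 13.07, 12.88, 12.56 and 12.43 in wild type. DSE1 (YER124C), another daughter-specific gene, lay between 6.22 and 6.39 in cdc14-3, between 5.99 and 6.63 in cdc15-2, and at 10.43, 10.92, 10.73, 10.50 and 10.29 in wild type. No mutant array came within 3 log2 units of any wild-type array for either gene. DSE2 fell by 4.34 ± 0.16 (adjusted p = 2.6e-05) and DSE1 fell by 4.20 ± 0.17 (adjusted p = 3.09e-05). Fewer cells expressing such a gene and less of its RNA per cell cannot be told apart in these bulk samples.

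Wall-degrading enzymes of cell separation were lower by smaller amounts. CTS1, the chitinase that cuts the primary septum, lay between 9.97 and 10.84 in cdc14-3 (median 10.37), between 10.83 and 11.92 in cdc15-2 (median 11.34), and at 12.96, 13.48, 13.39, 13.11 and 12.98 in wild type. The difference was -2.32 ± 0.18 (adjusted p = 0.000832). SCW11, a glucanase, had 9.36 to 9.55 in cdc14-3 and 9.55 to 9.63 in cdc15-2, against 11.76, 12.22, 11.82, 11.50 and 11.36 in wild type (difference -2.20 ± 0.19, adjusted p = 0.00139). Relative to wild type, DSE4, also a daughter-cell glucanase, had a difference of -3.09 ± 0.14 and EGT2, a wall protein of early G1, one of -2.61 ± 0.14. For both the cdc14-3 arrays were the lowest and the cdc15-2 arrays lay between them and wild type. EGT2 had 8.70 to 9.004 in cdc14-3 and 10.34 to 11.03 in cdc15-2, against 12.72, 12.84, 12.34, 11.95 and 12.10 in wild type.

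The other lower genes of this list were PRY3, a wall-bound sterol-binding protein, at -1.94 ± 0.21, DSE3, a daughter-cell protein of the bud neck, at -1.82 ± 0.19, RME1, a repressor of meiosis, at -1.73 ± 0.18, and AMN1, given above. The 2 called higher were PIR3, a wall protein, at 1.55 ± 0.15 and TEC1, a filamentation factor that pheromone also induces, at 1.45 ± 0.13. The 15 uncalled members ranged from -1.67 to 0.90. Of these, PCL9, HO, ASH1 and BUD9 stood lower by 2.49, 2.16, 1.79 and 1.504 in cdc14-3, and by 0.85, 0.54, 0.55 and 0.55 in cdc15-2, so that each missed the size demanded in cdc15-2. ASH1, the daughter-nucleus repressor of mating-type switching, lay between 9.55 and 9.91 in cdc14-3, between 10.67 and 11.09 in cdc15-2, and at 11.94, 11.76, 11.28, 11.06 and 11.35 in wild type (difference -1.17 ± 0.15, adjusted p = 0.00777).

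SIC1, the inhibitor of mitotic kinase and a Swi5 target, took opposite sides in the mutants. It lay between 9.06 and 9.44 in cdc14-3 (median 9.18), between 10.01 and 10.30 in cdc15-2 (median 10.18), and at 9.99, 9.98, 9.59, 9.42 and 9.53 in wild type. All cdc15-2 arrays were above the wild-type arrays, and the mean over both mutants differed from wild type by -0.02 ± 0.15 (adjusted p = 0.955). PIR1, a wall protein on the same list, also split, at -1.58 in cdc14-3 and 0.72 in cdc15-2.

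DSE2 and EGT2 can be set beside the other courses of the series over the same minutes, all of which began from elutriated cells. Course means of DSE2 were 9.06 and 9.22 in the cyclin mutant, 8.93 and 9.22 in cdc20, and 11.07 and 10.997 in wild type at 30 °C. Those of EGT2 were 9.45 and 9.54 in the cyclin mutant, 8.86 and 9.07 in cdc20, and 12.37 and 12.30 in wild type at 30 °C. Both genes had lower course means in these 2 mutants than in wild type at 30 °C. Not every list member did. CYK3, uncalled here, had 11.09 and 11.29 in the cyclin mutant, 9.67 and 9.87 in cdc20, and 11.04 and 11.13 in wild type at 30 °C. These mutants also differ in genotype from cdc14-3 and cdc15-2. No test was run on these values, and the part of synchrony was not tested.

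Genes of the following G1 and S phases were mostly not called. Of 11 Mcm1-dependent early G1 genes 1 was called higher and 0 lower, with a median of 0.55. All mutant arrays lay above the wild-type arrays for 7 of the 11, as for 17.3% of all genes. CLN3, the most upstream G1 cyclin, lay between 11.84 and 11.97 in cdc14-3, between 11.95 and 12.26 in cdc15-2, and at 11.15, 11.10, 10.77, 10.53 and 10.73 in wild type, a rise of 1.19 ± 0.27 (adjusted p = 0.0389). FAR1, an inhibitor of G1 cyclin kinase, SWI4, the DNA-binding part of the factor SBF, and CDC6, which loads the replicative helicase, stood at 0.95, 0.91 and 0.82 and were not called. The cyclins CLN1 and CLN2 had differences of -0.14 ± 0.15 (adjusted p = 0.584) and -0.06 ± 0.23 (adjusted p = 0.885), and their mutant and wild-type arrays overlapped.

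Among 26 SBF targets, which act in budding, 0 were called higher and 2 lower, and among 37 MBF targets, which act in DNA replication, 1 was called higher and 0 lower. Their medians were 0.34 and -0.04. All mutant arrays lay above the wild-type arrays for 11 of the 26 SBF targets and below them for 3. For the 37 MBF targets these counts were 2 and 3, and over all genes the shares were 17.3% and 20.6%. The uncalled SBF targets ranged from -1.11 to 1.14. TOS6, a wall protein, lay between 9.77 and 10.36 in cdc14-3, between 9.55 and 10.22 in cdc15-2, and at 11.84, 12.23, 12.77, 12.33 and 11.99 in wild type (difference -2.24 ± 0.13, adjusted p = 0.0002). AXL2, a landmark for bud sites, fell by 1.20 ± 0.18 (adjusted p = 0.0114), and ASF1, a histone chaperone, rose by 1.21 ± 0.14 (adjusted p = 0.00459). RNR1, the large subunit of the enzyme that makes DNA precursors, had a difference of -0.43 ± 0.18 (adjusted p = 0.173).

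Of 10 measured histone genes, whose mRNAs are made in S phase, 1 was called lower and 0 higher. The called gene was HTA1. The median difference was -0.70, and 7 of the 10 had all 12 mutant arrays under the 5 wild-type arrays, as 20.6% of all genes did. An adjusted p under 0.05 was reached by 6, against 9.54% of all genes. HTA1 lay between 12.17 and 12.39 in cdc14-3, between 12.06 and 12.41 in cdc15-2, and at 13.38, 13.49, 13.67, 13.73 and 13.60 in wild type, a difference of -1.33 ± 0.17 (adjusted p = 0.00736). HTB2 stood at -1.39 in cdc14-3 and -0.46 in cdc15-2. The uncalled members ranged from -0.94 to 0.01, and the one above 0 was CSE4, the centromeric histone. Histone genes occur as near-identical pairs, such as HTA1 and HTA2, whose probe sets may share signal.

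Structural genes of division gave no call by limma. Of 25 genes of cytokinesis and the septins 0 were called and 9 had an unadjusted p under 0.05, with a median of 0.27 and 20 members above 0. Of 29 genes of the spindle and kinetochore 0 were called and 6 had an unadjusted p under 0.05. Their median of -0.04 became 0.04 under quantile normalization. Over all genes 29.7% had an unadjusted p under 0.05. Of the 12 genes of anaphase and early Cdc14 release only CDC20 was called. CHS3 and CHS2, chitin synthases of the bud neck and septum, had differences of 0.84 and 0.75 with adjusted p-values of 0.0125 and 0.0225, under the size demanded. In the anaphase list, MCD1, the cohesin subunit cut by separase, stood at -1.31 in cdc14-3 and, just short of the size demanded, at -0.998 in cdc15-2, and was not called.

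**Figure D3:**
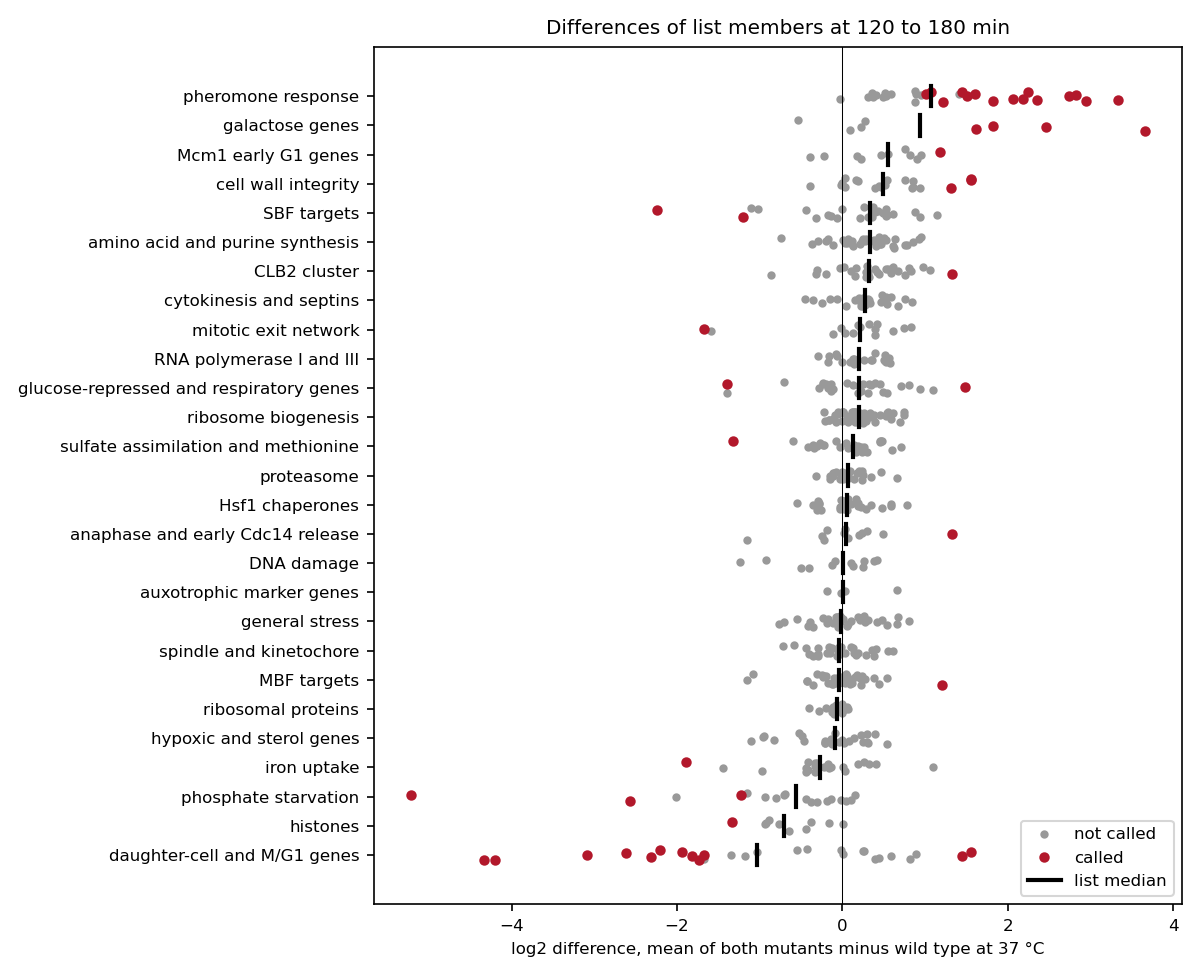
Log2 difference of every measured member of 27 gene lists, as the mean of both mutants minus wild type at 37 °C, with called genes in red, uncalled ones in grey and list medians as black bars. The pheromone list has its median at 1.07 and the daughter-cell and M/G1 genes at -1.03.

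The list with the most higher genes was that of genes induced by mating pheromone. Of 29 measured pheromone response genes 15 were called higher and 0 lower, against 0.734% and 1.12% of all genes. The median difference was 1.07. All mutant arrays lay above the wild-type arrays for 26 of the 29, against 17.3% of all genes. AGA1 (YNR044W), the anchor of the mating agglutinin, lay between 12.84 and 13.11 in cdc14-3 (median 13.03), between 12.96 and 13.07 in cdc15-2 (median 13.02), and at 9.56, 9.85, 9.90, 9.58 and 9.44 in wild type. The mutants coincided and lay 3.34 ± 0.18 above wild type (adjusted p = 0.000117). FUS1 (YCL027W), a membrane protein of cell fusion, had 11.63 to 12.00 in cdc14-3 and 11.48 to 12.00 in cdc15-2, against 9.51, 9.72, 9.68, 9.39 and 9.41 in wild type (difference 2.24 ± 0.15, adjusted p = 0.00039). FIG1, of mating projections, had 10.13 to 10.72 in cdc14-3 and 9.55 to 10.32 in cdc15-2, against 7.20, 7.09, 7.54, 7.76 and 7.70 in wild type, a rise of 2.74 ± 0.13 (adjusted p = 5.12e-05).

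The other called members had roles along the whole mating pathway. They were the G-protein subunit GPA1 (1.07), the MAP kinase FUS3 (1.61), the transcription factors KAR4 (1.51) and TEC1, the receptor regulator AFR1 (1.01) and the agglutinin SAG1 (1.22). Further called members were the fusion genes FUS2 (1.82), PRM1 (2.82) and FIG2 (2.94), together with PRM2 (2.35), PRM6 (2.18) and ASG7 (2.06). The 14 uncalled ones ranged from -0.03 to 1.41. STE12, the pathway's own transcription factor, was among them at 0.52, as was BAR1, the pheromone protease, which stayed between 6.44 and 7.07 on the 17 arrays of these bar1 strains.

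AGA1, FUS1 and FIG1 had stood higher at the moment of release than in the later window. At 0 min AGA1 stood at 14.33 in cdc14-3 and 14.29 in cdc15-2, FUS1 at 13.53 and 13.47, and FIG1 at 13.94 and 13.66. At 60 min AGA1 stood at 13.04 and 12.69, and FIG1 at 11.62 and 11.33. FUS1 stood at 11.47 in cdc14-3 and 11.35 in cdc15-2 at 60 min, and at 12.00 and 11.89 at 120 min. FIG1 was thus lower at 60 min than at release and lower again in the window, FUS1 was lower at 60 min than at 120 min, and AGA1 at 60 min stood near its levels of the window. GPA1 stood at 11.60 in cdc14-3 and 11.44 in cdc15-2 at 0 min, 10.42 and 10.17 at 60 min, and 11.26 and 11.46 at 120 min. The wild-type course, which met no pheromone, never went above 10.24 for AGA1, 9.87 for FUS1 and 7.76 for FIG1. In the 6 other courses, all elutriated, the means over the same minutes were 9.92 to 10.63 for AGA1 and 8.79 to 9.36 for FUS1. Within the courses compared, mutation and pheromone treatment cannot be told apart for these genes.

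Receptors of mating type were those of a cells on both sides. STE2, the alpha-factor receptor of a cells, lay between 13.45 and 13.56 in cdc14-3, between 13.26 and 13.30 in cdc15-2, and at 12.78, 12.86, 12.73, 12.62 and 12.69 in wild type. STE3, the receptor of alpha cells, stayed between 7.01 and 8.02 on the 17 arrays, with a difference of -0.52 ± 0.16 (adjusted p = 0.0839). The other measured alpha-cell marker, the pheromone-induced agglutinin SAG1, was called higher: it lay between 10.33 and 10.81 in cdc14-3, between 10.41 and 10.61 in cdc15-2, and between 9.22 and 9.54 in wild type (difference 1.22 ± 0.18, adjusted p = 0.0114). Of the 7 a-cell markers 2 were called higher, AGA2 (1.28 ± 0.16) and ASG7, and the mean level of the list ran from 12.08 to 12.21 in cdc14-3, from 11.90 to 12.00 in cdc15-2 and from 11.22 to 11.33 in wild type. The a-factor genes MFA1 and MFA2 stood at 0.61 and 0.28 and were not called. Of 9 markers of sporulating cells 0 were called higher and 1 lower, NDT80, a meiotic activator, at -1.38 ± 0.18, with wild-type levels of only 8.69 to 8.92.

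The largest single rise was in a retrotransposon. YGR109W-A, an open reading frame of a Ty3 element, lay between 13.64 and 13.82 in cdc14-3 (median 13.72), between 13.08 and 13.44 in cdc15-2 (median 13.29), and at 7.63, 7.74, 7.67, 7.76 and 7.73 in wild type, a difference of 5.80 ± 0.16 (adjusted p = 6.18e-06). YIL082W-A and YGR109W-B, also Ty3 reading frames, were higher by 3.65 ± 0.16 and 3.31 ± 0.14. Ty3 copies are nearly identical, so probe sets cannot assign the signal to a copy, and the 3 values are not independent of each other. Ty3 is known to be transcribed in response to pheromone, and at 0 min YGR109W-A stood at 14.49 in cdc14-3 and 14.26 in cdc15-2. The course means were 6.98 to 8.03 in the 6 other courses.

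**Figure D4:**
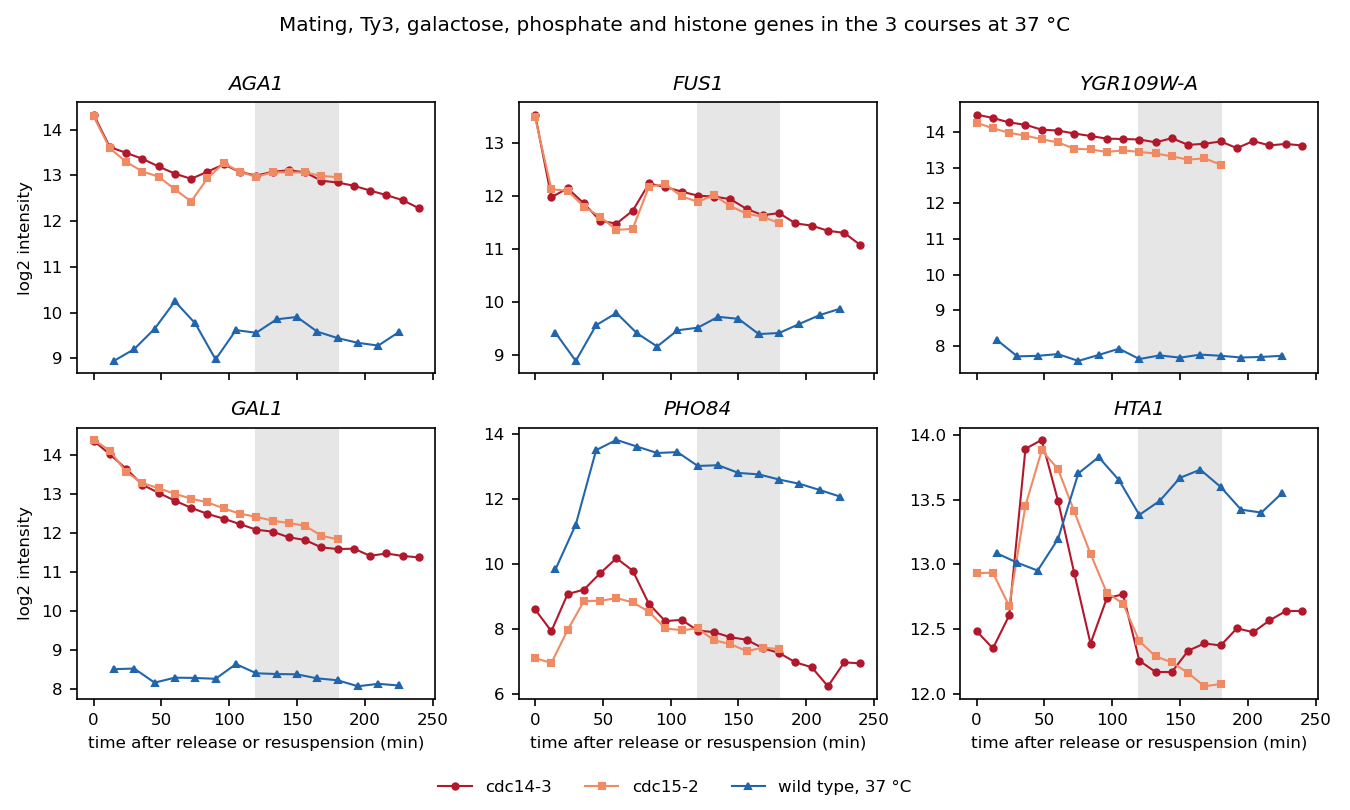
Log2 intensity over the minutes after release (cdc14-3, circles, and cdc15-2, squares) or resuspension (wild type at 37 °C, triangles), with 120 to 180 min shaded. AGA1, FUS1, YGR109W-A and GAL1 end lower than they start in the mutants without reaching wild type, PHO84 stays low in the mutants, and HTA1 is lower in the mutants throughout the shaded window.

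Galactose genes formed the next group of higher genes, although the labels give dextrose for the mutants and YEPD for wild type. Of 8 measured genes 4 were called higher and 0 lower, against 0.734% and 1.12% of all genes. The list median was 0.94. GAL1, galactokinase, lay between 11.59 and 12.09 in cdc14-3 (median 11.86), between 11.84 and 12.42 in cdc15-2 (median 12.22), and at 8.41, 8.39, 8.38, 8.28 and 8.23 in wild type (difference 3.66 ± 0.15, adjusted p = 3.09e-05). GAL7 and GAL10, the other enzymes of the pathway, rose by 2.46 ± 0.21 and 1.62 ± 0.14, and GAL2, the galactose transporter, by 1.82 ± 0.29. The regulators GAL80 and GAL3 stood at 0.23 and 0.27 and were not called. At 0 min GAL1 stood at 14.37 in cdc14-3 and 14.39 in cdc15-2, GAL7 at 14.18 and 13.96, and GAL2 at 13.91 and 14.06. In the 6 other courses GAL1 averaged 10.44 and 10.35 over the same minutes in the cyclin mutant, 9.87 and 10.13 in cdc20, and 8.72 and 8.68 in wild type at 30 °C. Its levels at 120 to 180 min in cdc14-3 and cdc15-2 were thus lower than at 0 min and higher than the means of all 6. Neither the sugar history of the mutant cultures before release nor its part in these values was tested.

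Of 18 measured phosphate genes 3 were called lower in the mutants and 0 higher, against 1.12% and 0.734% of all genes. The list median was -0.56. PHO84 (YML123C), the high-affinity phosphate importer, lay between 7.26 and 7.95 in cdc14-3 (median 7.71), between 7.32 and 8.02 in cdc15-2 (median 7.48), and at 13.00, 13.03, 12.79, 12.75 and 12.59 in wild type. The difference of -5.22 ± 0.14 (adjusted p = 6.18e-06) was the largest among the lower genes. The others called were SPL2, a regulator of phosphate import (-2.57 ± 0.54), and VTC3, of polyphosphate synthesis (-1.23 ± 0.18). PHO5, the secreted phosphatase, stood at -1.41 in cdc14-3 and -2.62 in cdc15-2 with an SE of 0.96 and did not pass (adjusted p = 0.207). In the 6 other elutriated courses PHO84 averaged 13.69 to 14.00, and in the wild-type course at 37 °C it stood at 9.83 at 15 min and 13.81 at 60 min.

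Cell wall integrity genes gave 3 called higher and 0 lower of 20 measured, against 0.734% and 1.12% of all genes. The list median was 0.49. All mutant arrays lay above the wild-type arrays for 12 of the 20 and below them for 0, against 17.3% and 20.6% of all genes. The called genes were YPS3, a wall protease (1.56 ± 0.27), PIR3, and SRL3 (1.32 ± 0.13). YPS3 moved most within the window, between 9.64 and 10.41 in cdc14-3, between 8.63 and 10.21 in cdc15-2, and at 7.93, 8.30, 8.55, 8.21 and 8.07 in wild type. At 0 min, before heat, YPS3 already stood at 11.92 in cdc14-3 and 11.62 in cdc15-2.

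No gene of the heat and stress lists was called against wild type at this late time. Of 27 Hsf1-dependent chaperone genes 6 had an unadjusted p under 0.05, with a list median of 0.05. Of 33 general stress genes 10 did, with a list median of -0.01 that became 0.04 under quantile normalization. Among all genes the share with such a p was 29.7%. The general stress median was 0.22 in cdc14-3 and -0.20 in cdc15-2, so the mutants lay on opposite sides of wild type. HSP26, a member of both lists, also lay above wild type in cdc14-3 and below it in cdc15-2. HSP104, the disaggregase, lay between 12.72 and 12.87 in cdc14-3, between 12.56 and 12.70 in cdc15-2, and at 12.65, 12.67, 12.59, 12.63 and 12.72 in wild type (difference 0.07 ± 0.15, adjusted p = 0.811). SSA4, a heat-induced chaperone, stood at 1.27 in cdc14-3 and 0.30 in cdc15-2 (mean 0.79 ± 0.18, adjusted p = 0.0384), and HSP12, a membrane stress protein, at -0.33 and -0.37 (adjusted p = 0.503). In the wild-type course HSP104 had reached 14.08 and SSA4 13.98 at 15 min.

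Growth genes gave no call by limma either. Of 53 ribosome biogenesis genes 12 had an unadjusted p under 0.05, with a median difference of 0.20, as did 7 of 20 genes of RNA polymerases I and III (median 0.20) and 1 of 23 ribosomal protein genes (median -0.07). Likewise 0 were called and 4 had an unadjusted p under 0.05 among 27 proteasome genes, 7 among 25 hypoxic and sterol genes, and 17 among 36 genes of amino acid and purine synthesis. The same counts were 0 and 5 of 12 DNA damage genes and 0 and 1 of 4 auxotrophic marker genes. These counts stand beside 29.7% of all genes with an unadjusted p under 0.05. ARG4, of arginine synthesis (0.96), LTV1, of ribosome export (0.75), and TIR1, an anaerobic wall protein (-0.94), had an adjusted p under 0.05 but not the size of a call.

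In the remaining nutrient lists calls were single genes. Among 29 glucose-repressed and respiratory genes JEN1, the lactate importer, rose by 1.48 ± 0.20 and ADY2, an acetate importer, fell by 1.40 ± 0.18. FIT2, a wall mannoprotein that holds iron carriers, fell by 1.89 ± 0.33 as the only call among 22 iron uptake genes. It lay between 9.73 and 10.28 in cdc14-3, between 9.68 and 10.24 in cdc15-2, and at 11.93, 11.95, 12.00, 11.83 and 12.02 in wild type. SUL1, a sulfate importer, fell by 1.32 ± 0.25 among 27 sulfate and methionine genes, from wild-type levels under 8.

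The lower calls were gathered among weakly expressed and short genes. With genes ranked by mean level over all arrays, the 1363 genes of lowest level held 36 of the 61 lower and 12 of the 40 higher genes, and their median difference was -0.10, against 0.03 among the 1362 genes of highest level, which held 8 and 2. Lower genes had a median length of 939 bp, against 1236 bp over all genes, and 19 of them (31.1%) were under 600 bp, as 899 of all genes (16.5%) were. Higher genes had a median length of 1648.5 bp. Systematic names only, with no gene symbol, were borne by 17 lower and 5 higher genes. YGR035C, the seventh of the lower genes, was one of them, at 7.21 to 7.41 in cdc14-3, 6.63 to 7.02 in cdc15-2, and 9.34, 9.34, 9.40, 9.64 and 9.55 in wild type.

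**Figure D5:**
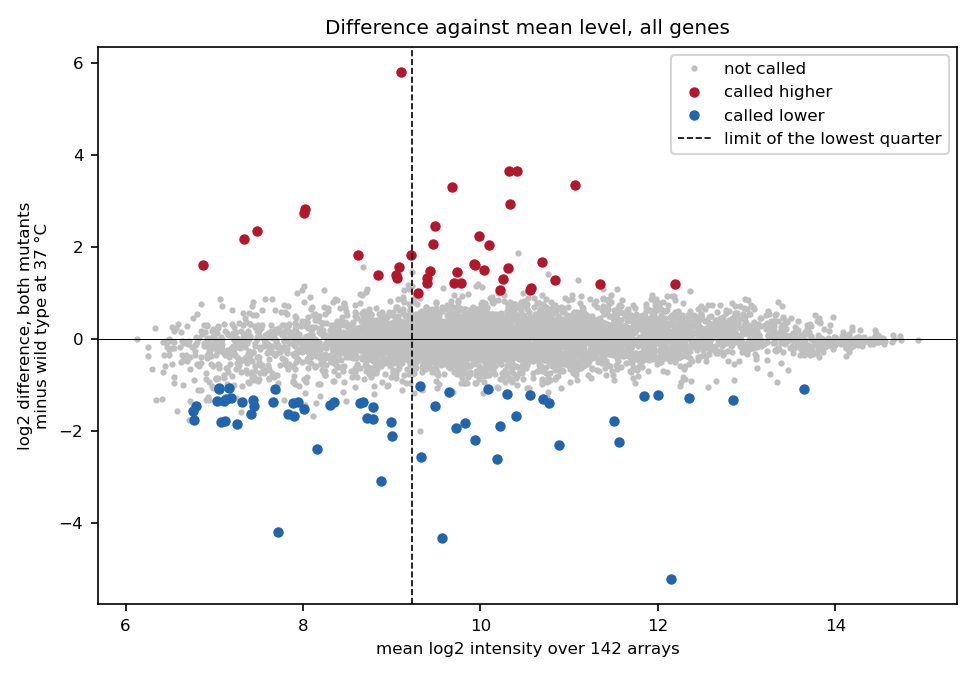
Log2 difference (mean of both mutants minus wild type at 37 °C) on the vertical axis against the mean log2 intensity over 142 arrays for 5449 genes, with higher calls in red, lower calls in blue and a dashed line at the upper limit of the 1363 genes of lowest level. Those genes hold 36 lower and 12 higher calls.

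Single matched times were also read. Those at 120 and 180 min belong to the window that set the calls, so they are no separate check. At 120 min 31 of the 40 higher genes were at least 1 log2 unit above wild type in both mutants, and at 180 min 36 were. Of the 61 lower genes 51 were at least as far below at 120 min and 56 at 180 min. At 60 min, outside that window, the counts were 25 and 33. There 2 higher and 5 lower genes lay on the other side of wild type in at least 1 mutant. CLN3 and HTA1 show the contrast, as HTA1 stood at 13.49 in cdc14-3 and 13.74 in cdc15-2 at 60 min, above the 13.20 of wild type, while CLN3 stood at 11.49 and 11.59, against 10.98. Within the window few genes moved, since at least 1 log2 unit was spanned by 5 genes (0.0918%) in cdc14-3, by 16 (0.294%) in cdc15-2 and by 14 (0.257%) in wild type.

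Taken alone, cdc14-3 had 80 genes (1.47%) higher and 90 (1.65%) lower than wild type at this size and adjusted p, and cdc15-2 had 54 (0.991%) and 70 (1.28%). Both sets share the wild-type arrays. A direct test of cdc14-3 minus cdc15-2, which were synchronised alike, gave 11 genes (0.202%) with an adjusted p under 0.05. HSP26, a small heat shock protein, lay between 12.75 and 12.95 in cdc14-3, between 10.34 and 10.66 in cdc15-2, and at 11.03, 11.13, 11.15, 11.19 and 11.56 in wild type. TKL2, a transketolase, lay between 9.04 and 9.50 in cdc14-3, between 7.09 and 7.51 in cdc15-2, and at 7.74, 7.67, 7.65, 7.54 and 7.66 in wild type. Both genes had all cdc14-3 arrays above and all cdc15-2 arrays below those of wild type.

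In the other direction PIR1 had 11.40 to 11.60 in cdc14-3 and 13.73 to 13.92 in cdc15-2, against 13.56, 13.59, 12.95, 12.54 and 12.79 in wild type. AIM44, a bud neck protein, had 9.09 to 9.42 in cdc14-3 and 11.04 to 11.22 in cdc15-2, against 11.43, 11.27, 10.72, 10.63 and 10.83 in wild type. Of the 11 genes, PIR1, EGT2, PCL9, HO and DSE4 belong to the list of daughter-cell and M/G1 genes, and each of these 5 was lower in cdc14-3. The TDH1 readings given above part the same 2 courses, while the ACT1 readings lie close together. The part of RNA quality in these 11 genes was not tested.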

How the data were processed

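RNA was measured on Affymetrix arrays. The values the authors deposited are processed probe-set intensities on a linear scale, from 22.18 to 35171, with array medians of 1056 to 1362. The submitters' processing notes name the affy package without a version; how probes were summarised and normalized is not given in the sources used here. The log2 was taken with a pseudocount of 0. Of 5900 probe sets, 184 controls and 218 without a gene name were left out, and 5498 carried 1 gene name. Where a gene had several probe sets (47 genes), that of highest mean was kept, leaving 5449 genes, and 12 symbols were updated from the reference table. All columns were used (0 unused). Precision is limited by the number of courses, since arrays of a course are different times.

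Replicate 2 of wild type at 30 °C correlated with replicate 1 at only 0.04606 (Pearson, over probe sets) as deposited, and at 0.9956 once its values were moved up by 1 probe set. The other courses had 0.8889 to 0.9869 among themselves. The move was used throughout, and no label mentions it.

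Each gene had 1 mean log2 intensity per course over 120 to 180 min. All 9 courses entered 1 limma 3.58.1 fit (R 4.3.3) with 6 group means, 3 residual degrees of freedom and 4.24 prior ones, and p-values were adjusted by Benjamini-Hochberg over all genes. The contrast was the mean of both mutants minus wild type at 37 °C. Where nothing says that courses of a group came from separate cultures, p-values measure only the spread between these courses. Tested on simulated data for this contrast, the fit recovered 95% of 200 genes changed by 2 on the log2 scale. It made 1 false call among the unchanged rest of the 5449 genes. Smaller changes were not simulated, and the called genes had median absolute differences of 1.58 (higher) and 1.46 (lower). The simulated sides did not differ in synchrony, RNA work or array series, so it cannot speak to these. Figures used matplotlib 3.10.9, numpy 2.4.6 and pandas 2.3.3 (Python 3.11.15).

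Replicate numbers shared by cdc20, the cyclin mutant and wild type at 30 °C were checked for pairing. Deviations from the group means correlated at 0.05896, 0.1638 and 0.02444 between pairs of groups, so the numbers were not taken to pair the courses. The text names 27 key genes, the 12 highest and the 12 lowest called genes, in each list the 4 members with the largest difference and any called member described, and the 3 genes at each end of cdc14-3 minus cdc15-2. Genes named beyond this rule, among them further members of the mitotic exit, pheromone and daughter-cell lists, were chosen after their values were seen. The members, lists and rules were chosen with earlier results of these data known.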

Additional observations from a re-analysis of the deposited data

Results flagged for a closer look

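The mutants parted on 11 genes in limma's direct test of cdc14-3 minus cdc15-2, with both compared to the same wild-type arrays. Lower in cdc14-3 were PIR1 at -2.29 (adjusted p = 0.00357), AIM44 at -1.88 (adjusted p = 0.0134), EGT2 at -1.76 (adjusted p = 0.0129) and PCL9, a cyclin of the kinase Pho85, at -1.64 (adjusted p = 0.018). So were HO, the mating-type endonuclease, at -1.62 (adjusted p = 0.0355) and DSE4 at -1.31 (adjusted p = 0.0355). Higher in cdc14-3 were HSP26 at 2.36 (adjusted p = 0.00311), TKL2 at 1.90 (adjusted p = 0.0129), FMP16 at 1.61 (adjusted p = 0.0129), HUG1, a DNA damage gene, at 1.60 (adjusted p = 0.0159) and EGO4 at 1.39 (adjusted p = 0.0129). HUG1 lay between 9.59 and 9.79 in cdc14-3, between 8.04 and 8.22 in cdc15-2, and between 10.06 and 10.39 on the 5 wild-type arrays. FMP16 lay between 9.08 and 9.26 in cdc14-3, between 7.35 and 7.77 in cdc15-2, and between 8.25 and 8.97 in wild type.

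Among 90 mean levels of a list in a course, 4 had 1 array apart from the others, and chance flags about 1 in 20 such groups. Arrays of a course are different times, so an array apart need not be an error. In cdc15-2 at 132 min the hypoxic and sterol genes averaged 11.09, against 11.18 to 11.22 on its other arrays. In wild type at 37 °C the a-cell markers averaged 11.22 at 165 min (others 11.30 to 11.33), the 2 alpha-cell markers 8.57 at 150 min (others 8.62 to 8.64) and the DNA damage genes 10.04 at 120 min (others 10.14 to 10.18).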

How the results depend on the processing

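Direction was kept for all called genes under the settings tried, but counts depended on choices. A call demands the same direction in both mutants, so leaving out 1 mutant could not reverse it. Leaving out a course of another group alters only the spread, so kept direction is no check there either. The same holds for every setting that left the means of the 3 compared courses unchanged. Among these were the deposited values, the replicate block, the genes of lowest level left out and no smallest difference. Direction could change only with another scaling, the pseudocount, the mean of probe sets or another choice of arrays. With wild type at 30 °C, replicate 2, as deposited, 0 genes were called higher, 0 lower and 0 between the mutants. With no smallest difference 242 were higher and 276 lower. With the 1363 genes of lowest level left out 28 were higher, 25 lower and 5 parted the mutants. Leaving out 1 course of another group gave 38 to 41 higher and 44 to 78 lower. Between the mutants it gave 2 to 13, the extremes being without a course of the cyclin mutant and of cdc20. Without cdc15-2 there were 80 higher and 90 lower, and without cdc14-3 there were 54 and 70. With a mutant left out the size was demanded of the other mutant alone. Those counts therefore repeat the ones given above for each mutant taken alone. With a replicate block 41 were higher, 60 lower and 8 between the mutants. Quantile normalization gave 41 and 46, and a pseudocount of 50 gave 34 and 45. Over all settings except the deposited values, 30 of 40 higher and 33 of 61 lower genes stayed called wherever they were tested. Leaving out the cdc15-2 array at 132 min (42 and 62) or the wild-type array at 120 min (42 and 64) was chosen after seeing the data.

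Genes not called changed sign in places, and the cause was not tested. Leaving out 1 course, in practice 1 mutant, moved AIM44 between -1.74 and 0.15, CLN2 between -0.33 and 0.20, EGO4 between -0.89 and 0.50, FMP16 between -1.07 and 0.54, HSP104 between -0.0035 and 0.14, HSP26 between -0.70 and 1.66, PIR1 between -1.58 and 0.72, SIC1 between -0.50 and 0.47 and TKL2 between -0.30 and 1.59. With only the arrays nearest 120 and 180 min CLN1 was at 0.16, CLN2 at 0.37 and EGO4 at 0.0814. SIC1 was at 0.0563 without the wild-type array at 120 min and at 0.16 with wild type over 75 to 225 min, where HSP104 was at -0.0003. Weak signal over background limits genes at low levels.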

Other observations

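Called genes outside the lists and the highest and lowest ones, picked here after their values were seen, included nutrient genes higher in the mutants. PUT4, the proline importer, had 10.15 to 10.34 in cdc14-3 and 10.05 to 10.58 in cdc15-2, against 8.45, 8.26, 8.22, 8.08 and 8.13 in wild type at 37 °C (difference 2.05 ± 0.19). ARO9 and ARO10, which break down aromatic amino acids, rose by 1.66 ± 0.16 and 1.39 ± 0.19. In the wild-type course all 3 were highest at 15 min, at 10.75, 13.15 and 12.12. Lower in the mutants were DIP5, an importer of acidic amino acids, and CHA1, which degrades serine and threonine. DIP5 had 9.95 to 10.54 in cdc14-3 and 10.32 to 10.81 in cdc15-2, against 12.21, 12.39, 12.33, 12.24 and 12.11 in wild type (-1.80 ± 0.22), and CHA1 stood at -1.25 ± 0.12. At 0 min CHA1 was at 7.19 in cdc14-3 and 7.46 in cdc15-2, against 10.72 to 11.48 and 10.63 to 11.22 in the window.

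Among lower genes of mitochondria were MRPL31, a ribosomal protein (-1.31 ± 0.28), COX17, a copper chaperone (-1.41 ± 0.34), and ATP10, an assembly factor of ATP synthase (-1.38 ± 0.21). IME4, an RNA methyltransferase of meiosis, rose by 1.61 ± 0.16 at low levels, with 7.08 to 7.52 in cdc14-3 and 7.54 to 7.98 in cdc15-2, against 5.90, 5.79, 5.87, 5.87 and 6.21 in wild type. It had stood at 11.68 in cdc14-3 and 11.11 in cdc15-2 at 0 min. CUP1-1, the copper metallothionein, which exists in near-identical copies, fell by 1.09 ± 0.16.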
